A study of Bos grunniens with 3 samples.

Results

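The kallikrein proteases described here are *KLK6*, *KLK7*, *KLK10* and *KLK12*, chosen as the rows of the gene list whose symbol is one of these 4 names. They are 4 of the 26924 genes counted, and each name matched 1 row (*KLK6* ENSBGRG00000016165, *KLK7* ENSBGRG00000016031, *KLK10* ENSBGRG00000015854, *KLK12* ENSBGRG00000015521). Single cells of hair follicles plucked from scapular skin of healthy Tianzhu white yaks about 2 years old were sequenced at 3 stages of the hair cycle: anagen, the growth phase, catagen, the regression phase, and telogen, the resting phase. The skin was digested with an enzyme until single follicles could be pulled out, and the follicles were then digested with trypsin. Each stage is 1 library made with a 3′ droplet kit, no treatment or genotype is named for any of them, and the labels do not say how many animals a library holds. The protocol text of the catagen library names anagen skin, while its other labels name catagen.

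Kallikrein-related peptidases are secreted serine proteases made as inactive precursors, and in the epidermis they cleave the proteins that hold corneocytes together, so that dead cells are shed from the surface. KLK7 cuts after aromatic residues like chymotrypsin, KLK5, KLK6 and KLK12 cut after basic residues like trypsin, and KLK10 lacks clear proteolytic activity in many assays. Their main brake in skin is LEKTI, the product of *SPINK5*, and proteases of this family are also known from the root sheaths of the follicle, where the inner sheath breaks down below the hair canal.

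The libraries differed in depth and in the cells that were deposited. After removing cells with under 200 genes, 11987 anagen, 12062 catagen and 14502 telogen cells were left, with 82816430, 51537357 and 103430933 unique molecular identifiers (UMIs). Over all deposited cells, before this filter, the median UMIs per cell were 5252 in anagen, 3340 in catagen and 5561 in telogen. The shallowest deposited cell had 2404 UMIs in anagen and 500 in the other libraries, and cluster 3, with a median of 3908 UMIs per cell in anagen, 742 in catagen and 1000 in telogen, held 422, 654 and 2851 cells. Follicle cells were present, as cluster 9 had raised levels of all 4 inner root sheath keratins with a row, and some clusters were led by genes of other cell types, such as cluster 22 (86 cells), led by *RGS1*, *VIM*, *FCER1A*, *LCP1* and *CD74*, of which several are immune genes, and cluster 18 (331 cells), led by the lipid genes *ELOVL3* and *MBOAT2*. Pairs of libraries shared 43, 40 and 49 cell barcodes. Since each stage is 1 library, and the libraries also differ in the software version named in their headers, stage and library cannot be told apart, and no test between stages was made. Levels are given as UMIs per 1000000 UMIs of the same cells (CPM), with exact Poisson intervals for levels, exact Clopper-Pearson intervals for shares and exact binomial intervals for ratios. All of them are 95% intervals that cover counting error only.

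All 4 kallikreins had UMIs in every library, and telogen had the highest level of each. *KLK7*, which cleaves corneodesmosomal proteins, stood at 389 CPM in anagen (385 to 393, 32213 UMIs), 197 CPM in catagen (193 to 201, 10145 UMIs) and 838 CPM in telogen (832 to 843, 86627 UMIs). The telogen library thus held more than the other libraries for *KLK7*, and catagen the least. *KLK6* stood at 13.2 CPM in anagen (12.4 to 14, 1092 UMIs), 1.59 CPM in catagen (1.27 to 1.97, 82 UMIs) and 24.1 CPM in telogen (23.1 to 25, 2490 UMIs). Its order was the same, and its catagen level rested on 82 UMIs. *KLK10* stood at 138 CPM in anagen (135 to 140.1, 11392 UMIs), 129.8 CPM in catagen (127 to 133, 6691 UMIs) and 175 CPM in telogen (173 to 178, 18116 UMIs), and *KLK12* at 24.1 CPM in anagen (23.1 to 25.2, 1997 UMIs), 24.3 CPM in catagen (23.0 to 25.7, 1253 UMIs) and 41.2 CPM in telogen (40.0 to 42.5, 4262 UMIs). For *KLK12* the anagen and catagen intervals overlapped, and for *KLK10* those 2 libraries lay close to each other.

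**Figure D1:**
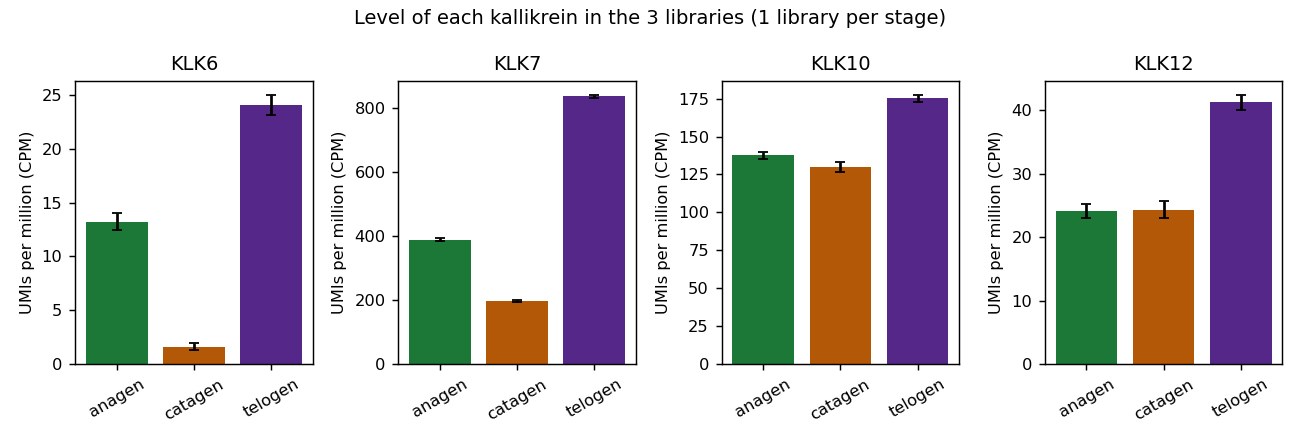
Level of each kallikrein in the anagen, catagen and telogen libraries in CPM (UMIs per 1000000 UMIs, linear axes from 0, a separate scale for each gene), with 1 library per stage and error bars for the exact 95% Poisson interval. *KLK6* and *KLK7* have their lowest bar in catagen, at 1.59 and 197 CPM, whereas the *KLK12* bars of anagen and catagen have overlapping intervals.

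Set against anagen, the catagen library had a log2 ratio of -3.05 (-3.39 to -2.73) for *KLK6*, -0.98 (-1.01 to -0.95) for *KLK7*, -0.08 (-0.13 to -0.04) for *KLK10* and 0.01 (-0.09 to 0.11) for *KLK12*, while the median over all genes with at least 10 CPM in either library was 0.05. The *KLK6* level was thus 8.29-fold lower in the catagen library, and its log2 ratio was -4.07 with the mean of each cell's CPM and -2.62 with at least 1000 genes per cell. As log2 ratios of telogen over anagen the values were 0.87 (0.77 to 0.97) for *KLK6*, 1.11 (1.09 to 1.12) for *KLK7*, 0.35 (0.31 to 0.38) for *KLK10* and 0.77 (0.70 to 0.85) for *KLK12*, beside a median of -0.18 over all genes. All 4 kallikreins were above that median. Between catagen and anagen 1 of 4 members was at least 2-fold apart, where 7.88% of all genes with at least 10 CPM in either were, between telogen and anagen 1 of 4, where 10.8% were, and between telogen and catagen 2 of 4, where 16.1% were. With median-of-ratios scaling, which moved every gene's log2 ratio by -0.25 for catagen and by 0.25 for telogen against anagen, the 3 comparisons held 8 such differences of members in place of 4. The share of all genes was not computed under that scaling, so the 8 is not read as a result about the members. The *KLK10* ratio of catagen over anagen turned from -0.08 to 0.21 when only cells with at least 1000 genes were used, so its direction depends on the cells kept.

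A small share of the cells carried a large share of the kallikrein UMIs. The 1% of cells with the most UMIs of a gene held 83.5% of anagen, 100% of catagen and 79.6% of telogen *KLK6* UMIs, and 46.1% of anagen, 83.1% of catagen and 41.9% of telogen *KLK7* UMIs. For *KLK10* the shares were 51.2% in anagen, 74.1% in catagen and 58.4% in telogen, and for *KLK12* 58.6% in anagen, 90.9% in catagen and 72.8% in telogen. Cells were ranked by the same UMIs that were summed, so such a share is high for any gene found in few cells. It had to be 100% for *KLK6* in catagen, found in fewer than 1% of cells. These shares are a description only. Single cells reached 1061 UMIs of *KLK7* in telogen, and the highest catagen cell held 580. *KLK6* in catagen was found in 29 cells, of which 15 had a single UMI and 2 had at least 10, and those 2 held 41.5% of its UMIs.

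For shares of cells, each cell was thinned to 1500 UMIs and shallower cells were left out, which removed 2263 catagen and 2932 telogen cells and no anagen cell. *KLK7* was then detected in 15.3% of anagen, 3.82% of catagen and 19.8% of telogen cells, and without thinning in 28.1% of anagen, 6.75% of catagen and 36.9% of telogen cells. *KLK10* was detected in 9.39% of anagen, 5.29% of catagen and 8.37% of telogen cells, and without thinning in 21.8% of anagen, 9.0% of catagen and 18.7% of telogen cells. All of these shares were lowest in catagen. *KLK6* was detected in 0.868% of anagen, 0.0612% of catagen and 1.55% of telogen cells, and without thinning in 2.5% of anagen, 0.240% of catagen and 3.70% of telogen cells. *KLK12* was detected in 2.47% of anagen, 1.14% of catagen and 2.58% of telogen cells, and without thinning in 6.25% of anagen, 1.95% of catagen and 6.12% of telogen cells. Cluster 20, led by *COL1A2*, *VIM* and *PECAM1* (a collagen, an intermediate filament of mesenchyme and an endothelial adhesion protein), should lack these proteases, and its cells had a median of 3525 UMIs in anagen, 1692 in catagen and 3553 in telogen. There *KLK7* was detected in 8.08% of anagen, 3.23% of catagen and 6.67% of telogen cells after thinning, and *KLK10* in 4.04% of anagen, 6.45% of catagen and 4.44% of telogen cells. *KLK6* and *KLK12* were in 0 of 99 anagen, 0 of 31 catagen and 0 of 45 telogen cells of cluster 20. A floor of 3 cells would be 3.03%, 9.68% and 6.67% of these cells, so low shares could be missed. Over all catagen cells, the shares of *KLK7* and *KLK10* lay near those of cluster 20, and they are therefore not read as expression across that library. In telogen, a single cell of cluster 20 held 73 of its 83 *KLK7* UMIs, and the largest *KLK10* count of a cell there was 27 of 31 UMIs.

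The compartments were taken from 24 clusters of the 3 libraries integrated together, built without the kallikreins, their inhibitors and the other genes of the lists below. Clusters 10 and 16 are singled out because the members were highest there. Cluster 16 (503 cells) was led by *KRT75*, a keratin of the companion layer between the outer and the inner root sheath, with *TF*, *GABRP*, *AGR2* and *WNT11*. Both companion layer markers with a row, *KRT75* and *WNT11*, were raised in it, but so were single markers of other classes (*KRT7* of glands, *TAGLN* of the dermal sheath), and with under 3 markers of a class the cluster is left unnamed. Cluster 10 (954 cells) was led, among genes with a symbol, by *KRT23* and *CA6*. It had raised levels of *SBSN* and *KRTDAP*, proteins of differentiating epidermis, and of *KRT79* and *KRT17*, keratins of the upper follicle. None of these was among its 10 leading genes, and it too is left unnamed. Cells of both clusters were deeper than the library medians except in anagen cluster 16, with a median of 7941, 6400 and 10497 UMIs in cluster 10 and of 4866, 7616 and 10441 UMIs in cluster 16, in the order anagen, catagen, telogen.

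Together, clusters 10 and 16 held 3.66% of the anagen, 3.49% of the catagen and 4.12% of the telogen cells, with 4.91%, 6.16% and 7.27% of all UMIs. They held 80.0% of anagen, 87.8% of catagen and 81.2% of telogen *KLK6* UMIs, and 53.2% of anagen, 83.6% of catagen and 62.1% of telogen *KLK7* UMIs. For *KLK10* they held 54.4% in anagen, 79.5% in catagen and 69.9% in telogen, and for *KLK12* 48.3% in anagen, 91.0% in catagen and 79.8% in telogen. For each member the catagen share was the highest of the 3 libraries.

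**Figure D2:**
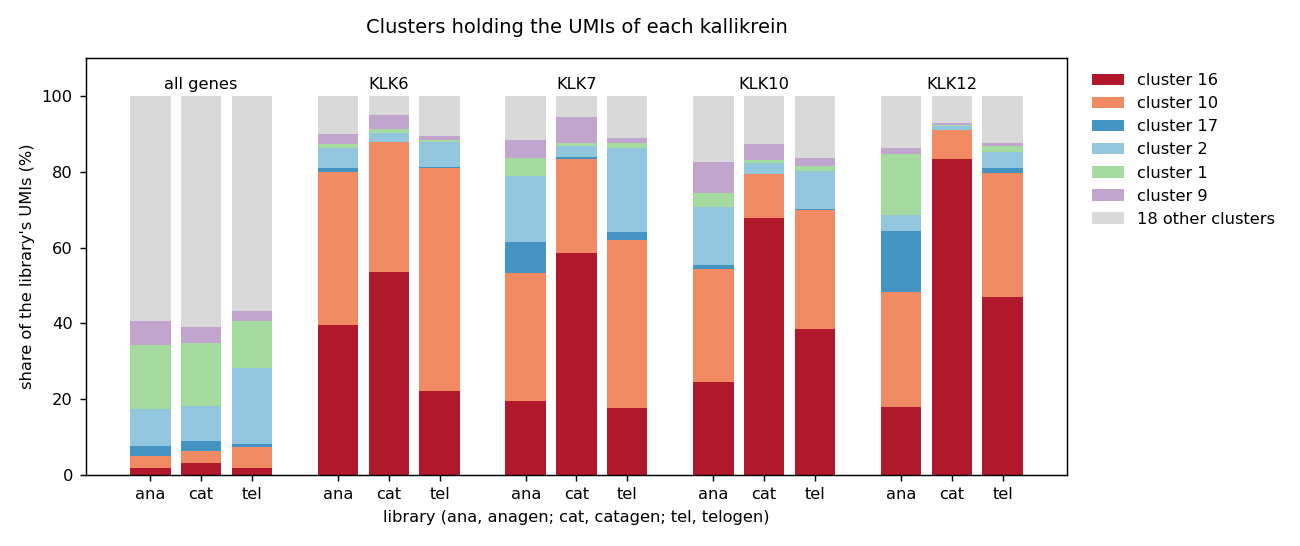
Share of each library's UMIs (%, vertical axis) by cluster, for all genes and for each kallikrein, in the anagen, catagen and telogen libraries. Clusters 16 and 10, the lower parts of each bar, hold 4.91% to 7.27% of the UMIs of all genes but 48.3% to 91.0% of those of a kallikrein, both ends being *KLK12*.

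By summed UMIs, the highest level lay in cluster 16 and the second in cluster 10 for every member in every library. *KLK10* stood at 1986 CPM in anagen, 2767 in catagen and 3674 in telogen in cluster 16, against 1282 CPM in anagen, 503 in catagen and 1014 in telogen in cluster 10. *KLK7* stood at 4459 CPM in anagen, 3619.7 in catagen and 8088 in telogen in cluster 16, against 4092 CPM in anagen, 1650.3 in catagen and 6836 in telogen in cluster 10. The gap between the clusters in summed UMIs, with all cells kept, was therefore small for *KLK7* outside catagen and larger for *KLK10*. The median of *KLK7* over cells was higher in cluster 10, at 2930 CPM in anagen, 713 in catagen and 6304 in telogen. In cluster 16 this median was 962 CPM in anagen, 285 in catagen and 3559 in telogen. The medians of *KLK10* in each library and of *KLK12* in telogen were higher in cluster 16. *KLK12* stood at 255 CPM in anagen, 636 in catagen and 1057 in telogen in cluster 16, against 228 CPM in anagen, 62.6 in catagen and 248 in telogen in cluster 10. *KLK6* stood at 309 CPM in anagen, 26.8 in catagen and 291 in telogen in cluster 16, against 166 CPM in anagen, 18.3 in catagen and 261 in telogen in cluster 10. The intervals of the 2 clusters overlapped for *KLK12* in anagen (229.5 to 283 and 210.4 to 247 CPM), for *KLK6* in telogen (267 to 316 and 248 to 275 CPM) and for *KLK6* in catagen (19.5 to 36.0 and 12.1 to 26.4 CPM). The catagen levels of *KLK6* rest on few cells, as 191 of 207 cells of cluster 16 and 210 of 214 of cluster 10 held none. With the 5% of cells with the most UMIs left out, as a guard against doublets, *KLK12* in anagen and *KLK6* in telogen were highest in cluster 10 and the other 10 pairs of member and library in cluster 16. Under that setting *KLK7* in anagen stood at 7699 CPM in cluster 16, where it was 4459 CPM with all cells kept. After thinning, *KLK7* was detected in 91.1% of anagen, 51.8% of catagen and 96.0% of telogen cells of cluster 10 and in 60.1% of anagen, 43.9% of catagen and 76.6% of telogen cells of cluster 16, above the shares in cluster 20. *KLK10* was detected in 47.7% of anagen, 28.8% of catagen and 44.9% of telogen cells of cluster 10 and in 60.8% of anagen, 63.5% of catagen and 81.5% of telogen cells of cluster 16.

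**Figure D3:**
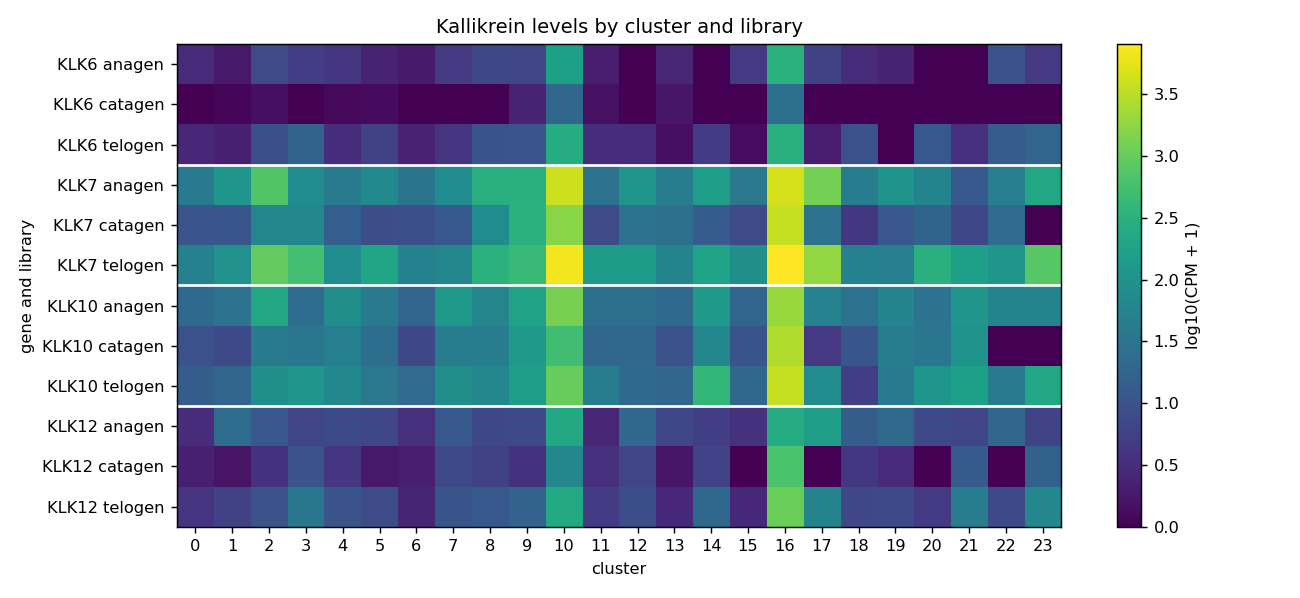
Level of each kallikrein in each library (rows) and cluster (columns), coloured by log10(CPM + 1). The 2 bright columns are clusters 10 and 16, and *KLK7* shows further signal in clusters 2 and 17 in anagen and telogen, for example 1254 and 1875 CPM in cluster 17.

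Clusters 10 and 16 were chosen for their levels of the members, so the fold over all other cells of the library is a description. In cluster 16 the fold ran from 11.5 for *KLK7* in telogen to 152 for *KLK12* in catagen. In cluster 10 it ran from 2.70 for *KLK12* in catagen to 25 for *KLK6* in telogen. The other cells of each cluster include those of the other cluster, which lowers the fold. For *KLK12* in catagen, the cells outside cluster 10 stood at 23.1 CPM with cluster 16 among them. The median over the 24 clusters was 2.73 CPM.

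A finer clustering split cluster 16 into 2 groups. Fine cluster 24 (265 cells), led by *TF*, *GABRP*, *AGR2*, *ATP6V1B1* and *SPP1*, held most UMIs of each member in cluster 16. Fine cluster 25 (241 cells), led by *KRT75*, *WNT11*, *ADGRV1*, *ISG15* and *TAGLN*, had lower levels of all 4 members. *KLK7* stood at 12778 CPM in anagen, 7055 in catagen and 9896 in telogen in fine cluster 24, against 327 CPM in anagen, 267 in catagen and 400.4 in telogen in fine cluster 25. *KLK10* stood at 5066 CPM in anagen, 4872 in catagen and 4283 in telogen, against 447 CPM in anagen, 713 in catagen and 1078 in telogen. *KLK12* stood at 685 CPM in anagen, 1248 in catagen and 1244 in telogen, against 40.5 CPM in anagen, 38.5 in catagen and 258 in telogen. *KLK6* stood at 918 CPM in anagen, 54.2 in catagen and 359 in telogen in fine cluster 24, whereas fine cluster 25 had 5 UMIs of it in anagen and 0 in the other libraries. *KRT75* itself went the other way, with 5451 CPM in anagen, 3184 in catagen and 2174 in telogen in the cells of cluster 16 in fine cluster 24 and 9963 CPM in anagen, 10746 in catagen and 13062 in telogen in those of fine cluster 25.

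Cell by cell, the members were spread unevenly over fine cluster 24. The median level of *KLK10* over its cells was 2809.9 CPM in anagen, 4388 in catagen and 4362 in telogen, and it was missing from 0 of 62 anagen, 4 of 97 catagen and 4 of 106 telogen cells. *KLK7* had a median of 7219 CPM in anagen, 2712 in catagen and 6339 in telogen, with 1, 11 and 0 cells at 0. Nearly every cell of the group thus held *KLK10*, and most held *KLK7*. *KLK12* had a median of 80.1 CPM in anagen, 759 in catagen and 941 in telogen, with 30, 15 and 18 cells at 0. The cells of this group had a median of 4916, 7708 and 11450.0 UMIs in the same order. After thinning to 1500 UMIs, *KLK12* was detected in 29.0% (18.2 to 41.9) of the 62 anagen, 64.7% (53.6 to 74.8) of 85 catagen and 66.7% (56.3 to 76.0) of 96 telogen cells, so that it was less often found in anagen at equal depth too. *KLK6* had a median of 411 CPM in anagen, with 16 cells at 0, and a median of 0 in catagen and telogen, with 81 and 66 cells at 0.

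Cluster 10 was split into 3 groups that differed in their kallikreins. Its largest group, 662 cells of fine cluster 12, had all 4 members, with *KLK7* at 3643 CPM in anagen, 1403 in catagen and 5554 in telogen and *KLK10* at 1517 CPM in anagen, 733 in catagen and 1247 in telogen. There *KLK6* stood at 205 CPM in anagen, 32.0 in catagen and 319 in telogen and *KLK12* at 171 CPM in anagen, 103 in catagen and 272 in telogen. The catagen value of *KLK6* rests on few cells, as 210 of the 214 catagen cells of cluster 10 held none. A group of 178 cells from fine cluster 9, which is led by *KRT79*, had *KLK7* at 7525 CPM in anagen, 1957 in catagen and 10016 in telogen, with *KLK10* at 712 CPM in anagen, 366 in catagen and 433 in telogen and *KLK12* at 40.5 CPM in anagen, 6.84 in catagen and 59.1 in telogen. A group of 114 cells came from fine cluster 22, which is led by *CCHCR1* and *KRT77* among genes with a symbol and also holds all of cluster 17. It paired *KLK7* at 4658 CPM in anagen, 1996 in catagen and 10290.1 in telogen with *KLK12* at 722 CPM in anagen, 10.9 in catagen and 623 in telogen. *KLK10* was lower there than in fine cluster 12, at 150.0 CPM in anagen, 62.8 in catagen and 389 in telogen. These groups hold 25 to 306 cells a library.

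**Figure D4:**
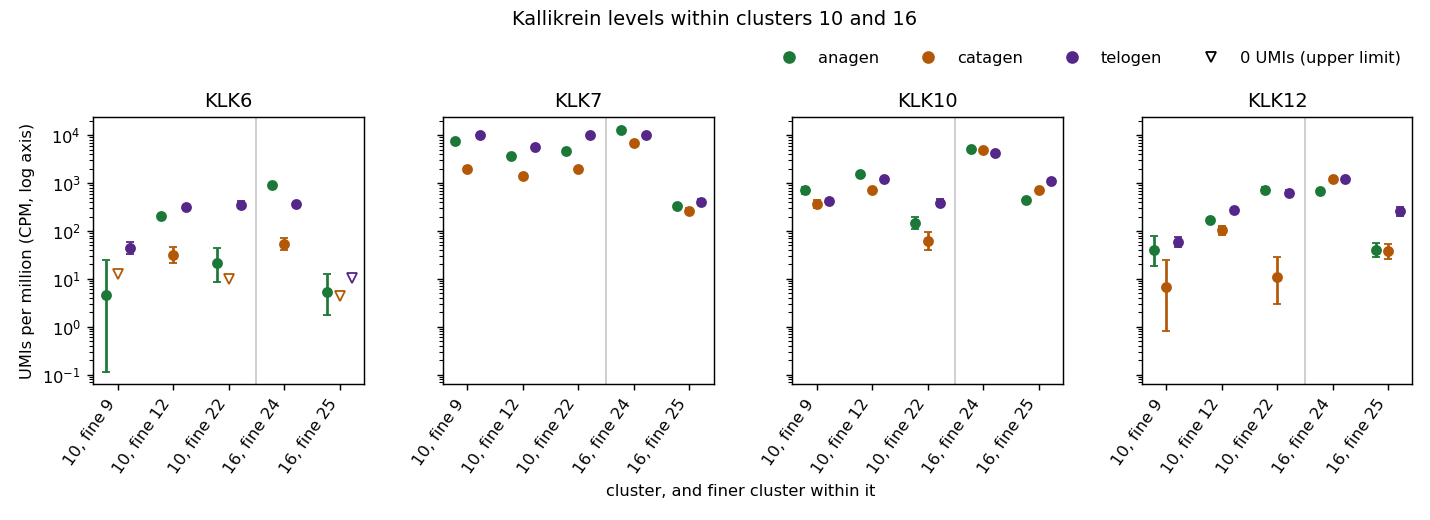
Level of each kallikrein (CPM, log axis) in the groups that the finer clustering makes of cluster 10 (left of the grey line) and cluster 16 (right of it), by library, with exact 95% Poisson intervals and open triangles for the upper limit where no UMI was found. Fine cluster 24 lies above fine cluster 25 for each gene and library, and *KLK12* in the fine cluster 22 cells of cluster 10 spans 10.9 CPM in catagen to 722 CPM in anagen.

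Between catagen and anagen, with all cells kept, *KLK10* and *KLK12* differed in opposite directions in clusters 10 and 16. For *KLK12*, the catagen level over the anagen level gave a log2 ratio of 1.32 (1.14 to 1.49) in cluster 16 and -1.87 (-2.19 to -1.55) in cluster 10. For *KLK10* it was 0.48 (0.41 to 0.55) in cluster 16 and -1.35 (-1.46 to -1.24) in cluster 10. With the 5% of cells with the most UMIs left out, *KLK10* in cluster 16 stood at 2442 CPM in anagen and 2511 in catagen. The 2 libraries thus lay close to each other for *KLK10* in cluster 16 under that setting. Cluster 16 held 1.69% of the anagen and 3.19% of the catagen UMIs, and cluster 10 held 3.21% and 2.98%. *KLK6* was lower in catagen in both, at -3.53 (-4.01 to -3.08) and -3.18 (-3.79 to -2.63), and so was *KLK7*, at -0.30 (-0.35 to -0.25) and -1.31 (-1.37 to -1.25). In catagen, *KLK6* was missing from 191 of 207 cells of cluster 16 and from 210 of 214 cells of cluster 10. Its intervals do not cover the spread between so few cells. Of telogen over anagen, the log2 ratio of *KLK12* was 2.05 (1.89 to 2.22) in cluster 16 and 0.12 (-0.02 to 0.26) in cluster 10, the second interval including 0. That of *KLK10* was 0.89 (0.82 to 0.95) and -0.34 (-0.40 to -0.28). *KLK7* was higher in telogen in both clusters, at 0.86 (0.82 to 0.90) and 0.74 (0.71 to 0.77). With the same 5% of cells left out, *KLK7* in cluster 16 stood at 7699 CPM in anagen, 3117 in catagen and 8712 in telogen. Under that setting its catagen level in cluster 16 lay further below the anagen level than the ratio of -0.30 with all cells kept.

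The makeup of cluster 16 moved with its library. Fine cluster 24 gave 61 of its 158 cells in anagen, 97 of 207 in catagen and 106 of 138 in telogen. Within fine cluster 24 the log2 ratio of catagen over anagen was 0.87 (0.68 to 1.05) for *KLK12*, -0.06 (-0.13 to 0.02) for *KLK10*, -0.86 (-0.91 to -0.80) for *KLK7* and -4.08 (-4.56 to -3.63) for *KLK6*. The higher catagen level of *KLK10* in cluster 16 was therefore not present within this group, while that of *KLK12* was. Of telogen over anagen, *KLK12* was 0.86 (0.69 to 1.04), *KLK10* -0.24 (-0.31 to -0.17), *KLK7* -0.37 (-0.41 to -0.33) and *KLK6* -1.35 (-1.54 to -1.17). *KLK7* and *KLK10* thus had a higher telogen level in cluster 16 as a whole and a lower one within fine cluster 24. By the levels given above, fine cluster 25 had more *KLK10* in catagen and telogen than in anagen, and more *KLK7* in telogen. It held 33 telogen cells, and medians over its cells did not all follow. They were 318 CPM in anagen and 0 in telogen for *KLK7*, and 164 CPM in anagen and 0 in catagen for *KLK10*. When cluster levels were weighted by the anagen shares of UMIs in every library, an alternative chosen after seeing the data, the library log2 ratios of catagen over anagen became -0.62 for *KLK10* and -0.70 for *KLK12*.

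Outside clusters 10 and 16, *KLK7* was next highest in cluster 17 in anagen and telogen and in cluster 9 in catagen. Cluster 17 (422 cells) is suprabasal-like, with all 5 suprabasal markers raised and *KRT77* and *KRT2* leading, and had *KLK7* at 1254 CPM in anagen, 27.4 in catagen and 1875 in telogen. *KLK12* stood there at 149 CPM in anagen and 54.6 CPM in telogen, with 0 UMIs in the 150 catagen cells (upper limit 2.53 CPM), and *KLK6* had 10, 0 and 1 UMIs in the 3 libraries. Cluster 2 (4286 cells), upper-follicle-like by *KRT79*, *KRT17* and *GATA6*, had *KLK7* at 690.0 CPM in anagen, 62.1 in catagen and 935 in telogen and *KLK10* at 216 CPM in anagen, 39.2 in catagen and 87.7 in telogen. After clusters 16 and 10, *KLK10* was highest in cluster 2 in anagen, cluster 9 in catagen (128 CPM) and cluster 14 in telogen (392 CPM). Cluster 2 held 17.4% of anagen, 2.89% of catagen and 22.2% of telogen *KLK7* UMIs. In clusters 17 and 2 the catagen level of *KLK7* was far below the anagen level, with log2 ratios of -5.52 (-6.00 to -5.07) in cluster 17 and -3.47 (-3.65 to -3.30) in cluster 2. Cluster 1 (4575 cells), with 3 of 5 suprabasal markers raised, had a like ratio of -3.42 (-3.75 to -3.10). In cluster 9, which is IRS-like (inner root sheath) by *KRT71*, *KRT25*, *KRT27* and *KRT28*, *KLK7* stood at 303 CPM in anagen, 313 in catagen and 448 in telogen, and its log2 ratio there, 0.05 (-0.08 to 0.18) for catagen against anagen, had an interval that includes 0. Cluster 3 had *KLK7* at 79.6 CPM in anagen, 64.3 in catagen and 549 in telogen, and they held 2.19% of the telogen *KLK7* UMIs.

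Cells with a high count of *KLK6* or *KLK12* lay mostly in clusters 10 and 16, while those with a high count of *KLK7* were spread more widely in anagen and telogen. Of the cells with at least 10 UMIs of *KLK6*, 27 of 27 in anagen, 2 of 2 in catagen and 50 of 54 in telogen were in clusters 10 and 16. For *KLK12*, 28 of 37, 39 of 39 and 105 of 113 were there. For *KLK7* it was 264 of 636, 129 of 154 and 510 of 1164, and cluster 2 held a further 159 anagen, 4 catagen and 460 telogen cells. Clusters 10 and 16 were chosen for their levels of the members, and cells were not thinned here. These counts are therefore a description only.

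Cells that held one kallikrein held the others more often. Among telogen cells thinned to 1500 UMIs, *KLK7* was found in 86.0% (80.1 to 90.8) against 18.8% (18 to 19.5) of cells with and without *KLK6*. In anagen it was found in 72.1% (62.5 to 80.5) against 14.8% (14.2 to 15.4). Most cells with *KLK6* thus also held *KLK7*. In catagen all 6 cells with *KLK6* held it, or 100% (54.1 to 100) against 3.76% (3.39 to 4.15). *KLK12* was found in 7.56% (6.08 to 9.26) against 1.94% (1.69 to 2.22) of anagen cells with and without *KLK10*, in 13.5% (10.7 to 16.8) against 0.453% (0.326 to 0.611) of catagen cells and in 16.8% (14.5 to 19.3) against 1.27% (1.07 to 1.51) of telogen cells. In each library all 12 ordered pairs of members had a higher share in cells with the first gene, with intervals apart. The 12 are 6 pairs, each scored both ways, and other pairs of genes were not scored. The count is therefore not read as a result about the members. These values are a description over cells that share a library and depth.

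**Figure D5:**
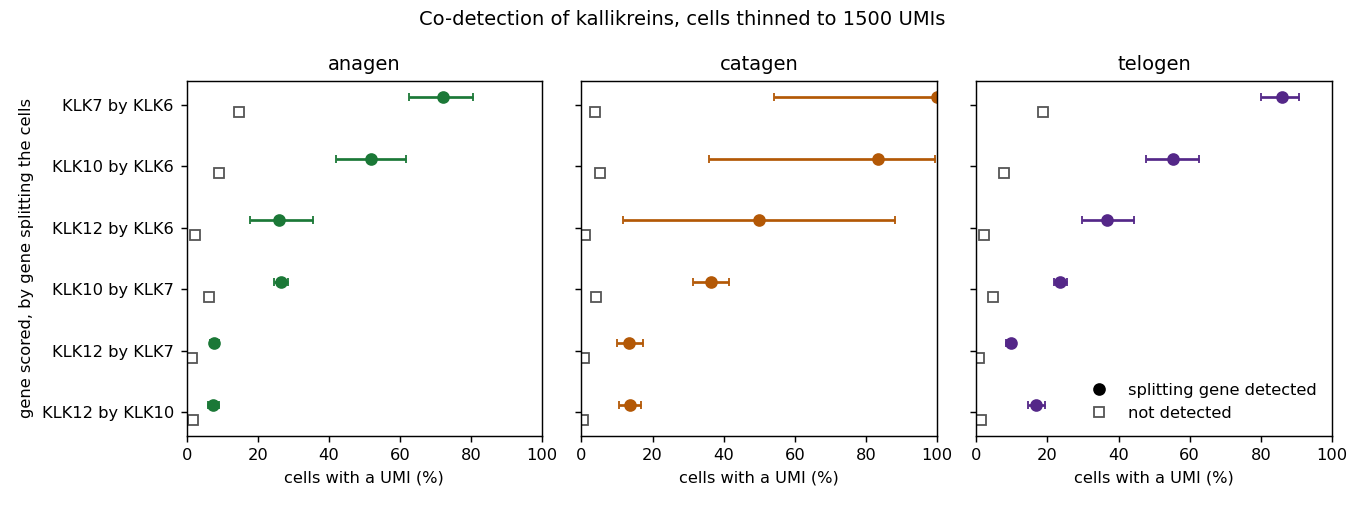
Share of cells (%, horizontal axis) with a UMI of the first gene named, among cells with (filled circles) and without (open squares) a UMI of the second, after thinning to 1500 UMIs, by library, with exact 95% intervals. The filled circle lies to the right in all 18 comparisons, and the catagen intervals for *KLK6* are wide because they rest on 6 cells.

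Within the clusters fewer pairs had intervals apart. Clusters hold far fewer cells than a library, which widens the intervals, so these counts cannot be set against those over all cells. Among all cells outside clusters 10 and 16, 8 of 12 ordered pairs in anagen and 12 of 12 in telogen were higher with intervals apart. In catagen 2 of the 9 ordered pairs that could be scored there were. In cluster 16, 10 of 12 ordered pairs in anagen and 6 of 12 in catagen and in telogen were still higher with intervals apart. In cluster 10 these counts were 2, 2 and 6 of 12. In cluster 10 *KLK10* was found in 47.7% (41.4 to 54.0) against 48% (27.8 to 68.7) of anagen cells with and without *KLK7*. The pair of *KLK6* and *KLK12* differed there in anagen and telogen, where *KLK12* was found in 48.3% (29.4 to 67.5) against 17.5% (13.0 to 22.7) and 53.9% (43.0 to 64.6) against 18% (14.1 to 22.4) of cells with and without *KLK6*. Within fine cluster 24, with 62 anagen, 85 catagen and 96 telogen cells after thinning, no ordered pair of 36 was higher with intervals apart. There 1 was lower, since in anagen *KLK12* was found in 14 of 58 cells with *KLK7* and in 4 of 4 cells without. All 4 members were found together in 20 anagen, 3 catagen and 48 telogen cells, of which 20, 3 and 46 were in clusters 10 and 16.

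The keratins *KRT1* and *KRT10*, which mark cells that have left the basal layer, did not order the kallikreins in one way. With cells ranked by the share of their UMIs from both keratins, the log2 ratio of the upper over the lower 5 of 10 bins was 0.50 in anagen, -1.04 in catagen and 0.84 in telogen for *KLK7*. It was -0.51 in anagen, -1.68 in catagen and -0.77 in telogen for *KLK10*, so that *KLK10* was higher in cells with few of these keratins in each library. For *KLK6* the log2 ratio was -1.38 in anagen, 0.90 in catagen and -0.80 in telogen, the catagen value resting on 82 UMIs of which 39 lay in 1 bin. For *KLK12* the log2 ratio was 0.75 in anagen, -2.29 in catagen and -1.60 in telogen. The upper bins were higher in 4 of 12 pairs of member and library. When cells were ranked by *KRTDAP* and *SBSN*, secreted proteins of later differentiation, the upper bins were higher in 12 of 12 pairs, with log2 ratios from 2.63 to 6.04. The share of all genes was not computed for either ranking, so the 4 and the 12 are not read as a result about the members.

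The other kallikreins lie beside the members on the chromosome. In the RefSeq annotation of the assembly Bosgru_T2T1.0, which need not be the build behind the counts, the order is *KLK15*, *KLK4*, *KLK5*, *KLK6*, *KLK7*, *KLK8*, *KLK9*, *KLK10*, *KLK11*, *KLK12*, *KLK13* and *KLK14*. Of 12 other kallikreins looked for, 7 had a row. *KLK5*, which activates other kallikreins, stood at 45.4 CPM in anagen, 5.26 in catagen and 52.0 in telogen, and *KLK11* at 50.6 CPM in anagen, 23.8 in catagen and 56.8 in telogen. Both were at least 2-fold lower in catagen than in anagen and neither was 2-fold apart between telogen and anagen. Of all genes, 7.88% and 10.8% were at least 2-fold apart either way in these comparisons. In contrast to the members, both were highest in cluster 10, with *KLK5* at 624 CPM in anagen, 107 in catagen and 641 in telogen there and 129 CPM in anagen, 46.9 in catagen and 183 in telogen in cluster 16. *KLK11* stood at 382 CPM in anagen, 252 in catagen and 468 in telogen in cluster 10 and 32.1 CPM in anagen, 30.4 in catagen and 60.1 in telogen in cluster 16. In the fine cluster 22 cells of cluster 10, *KLK5* stood at 4031 CPM in anagen, 358 in catagen and 4044 in telogen, the group where *KLK12* was high in anagen and telogen. *KLK13* stood at 1.06 CPM in anagen, 0.582 in catagen and 1.79 in telogen and *KLK14* at 0.724 CPM in anagen, 0.233 in catagen and 1.03 in telogen. *KLK4* had 8, 7 and 9 UMIs, *KLK15* 3, 1 and 0, and *KLKB1*, the plasma kallikrein, 0 in each library. For this and the next lists, genes with at least 10 CPM over a whole library were compared between a cluster and the other cells, so that both clusters have the same genes. Of all such genes, 5.47% in anagen, 7.59% in catagen and 6.55% in telogen were at least 2-fold higher in cluster 10, and 4.29%, 7.83% and 5.93% in cluster 16. At least 2-fold lower were 18.8%, 20% and 17.4% in cluster 10, and 13.8%, 14.7% and 13.6% in cluster 16. Of the other kallikreins, *KLK5* (in anagen and telogen) and *KLK11* passed this level, and each was at least 2-fold higher in cluster 10. In cluster 16, *KLK5* was 2.94-fold higher in anagen and 3.69-fold higher in telogen, and the fold of *KLK11* was 0.630 in anagen, 1.29 in catagen and 1.06 in telogen.

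The inhibitors differed in where they were found. Of 11 inhibitors looked for, 9 had a row. *SPINK5*, which encodes LEKTI, stood at 769 CPM in anagen, 1593 in catagen and 942 in telogen, so that it was highest in catagen. In cluster 16 it stood at 5451 CPM in anagen, 9043 in catagen and 10836 in telogen, and in cluster 10 at 4395 CPM in anagen, 10405 in catagen and 5658 in telogen. It was not confined to them, as its highest anagen level, 7739 CPM, was in the 51 anagen cells of cluster 14, led by *FGF18* and *PMP22*, and cluster 17 had 4987 CPM in anagen, 10074 in catagen and 3822 in telogen. *SPINT2*, an inhibitor of membrane-bound serine proteases, stood at 77.3 CPM in anagen, 103 in catagen and 125 in telogen. Of the inhibitors with at least 10 CPM in the library, 3 of 5 in anagen, 3 of 4 in catagen and 3 of 5 in telogen were at least 2-fold higher in cluster 10, and 1 in each library was at least 2-fold lower. In cluster 16, 2 of 5, 1 of 4 and 2 of 5 were higher, and 1, 2 and 2 were lower. *SERPINA12*, a serpin that inhibits KLK7, is named here after its values were seen, and it had 0 UMIs in cluster 16 in each library. Between catagen and anagen 2 of 6 inhibitors were at least 2-fold higher and 2 of 6 lower, where 7.88% of all genes were 2-fold apart. The log2 ratios were 1.05 for *SPINK5*, 1.95 for *SERPINA12*, -2.16 for *SPINK9* and -4.11 for *SPINK7*, which is also named after its values were seen. The median log2 ratio of the inhibitors was -0.07 beside 0.05 for all genes. The median log2 ratio of the inhibitors in cluster 10 over other cells was 1.88 in anagen, 2.01 in catagen and 3.07 in telogen, beside -0.34, -0.23 and -0.24 for all genes. In cluster 16 it was 0.02 in anagen, -1.03 in catagen and 0.27 in telogen, beside -0.17, -0.04 and -0.19.

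Of 6 genes for adhesion proteins and the protease receptor *F2RL1*, all 6 had a row. *DSG1* and *DSC1*, desmosomal cadherins that are cleaved in shedding, were highest in cluster 17. *DSG1* stood at 1374 CPM in anagen, 3308 in catagen and 2200.3 in telogen in cluster 17 and at 621 CPM in anagen, 1481 in catagen and 893 in telogen in cluster 16. *DSC1* stood at 328 CPM in anagen, 916 in catagen and 548 in telogen in cluster 17 and 29.9 CPM in anagen, 25.6 in catagen and 24.3 in telogen in cluster 16. *DSC2*, another desmosomal cadherin, stood at 573 CPM in anagen, 1243 in catagen and 547 in telogen in cluster 16. *CDSN*, which encodes corneodesmosin, another protein cleaved in shedding, is named here after its values were seen. It was higher in the clusters rich in members, at 41.3 CPM in anagen, 94.5 in catagen and 33.6 in telogen in cluster 10 and 32.1 CPM in anagen, 41.4 in catagen and 49.0 in telogen in cluster 16, against 4.64, 27.4 and 5.46 CPM in cluster 17, and it stayed under 10 CPM over each library. Of the 4 genes of the list with at least 10 CPM in the library, 0 were at least 2-fold higher in cluster 10, and 1 in anagen, 1 in catagen and 2 in telogen were lower. In cluster 16, 0, 2 and 0 were higher and 2 in each library were lower. Between the catagen and anagen libraries 1 of 4 was at least 2-fold higher, and between telogen and anagen 0 of 4 were 2-fold apart, where 7.88% and 10.8% of all genes were, with median log2 ratios of 0.78 and 0.34 beside 0.05 and -0.18 for all genes. The other serine proteases of the epidermal cascade, such as matriptase and prostasin, had 4 rows of 5 genes, and none reached 10 CPM in a library.

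Of 27 late differentiation and cornified envelope genes, which mark the last steps of the epidermal programme, 13 had a row. Of those with at least 10 CPM in the library, 6 of 8 in anagen, 6 of 8 in catagen and 6 of 7 in telogen were at least 2-fold higher in cluster 10 than in other cells, and 2 of 8, 1 of 8 and 2 of 7 in cluster 16. At least 2-fold lower were 1, 1 and 0 in cluster 10 and 1, 1 and 0 in cluster 16. Between libraries, 1 of 8 was at least 2-fold higher in catagen than in anagen, and 1 of 8 was higher and 2 of 8 lower in telogen than in anagen. Of all genes, 7.88% and 10.8% were at least 2-fold apart either way in these comparisons. The median log2 ratio of the list over other cells was 1.57 in anagen, 2.20 in catagen and 2.33 in telogen in cluster 10 and 0.47 in anagen, 0.04 in catagen and 0.89 in telogen in cluster 16. For all genes it was -0.34, -0.23 and -0.24 in cluster 10 and -0.17, -0.04 and -0.19 in cluster 16. *ELOVL4*, which makes the very long fatty acids of barrier lipids, stood at 249 CPM in anagen, 627 in catagen and 419.9 in telogen in cluster 10 and 179 CPM in anagen, 81.0 in catagen and 271 in telogen in cluster 16. Its highest level was in cluster 17 in anagen (487 CPM) and catagen (782 CPM) and in cluster 18 in telogen (478 CPM). *CERS3*, a ceramide synthase of the epidermis, was highest in cluster 17, at 345 CPM in anagen, 703 in catagen and 355 in telogen, and stood at 49.6 CPM in anagen, 75.6 in catagen and 53.0 in telogen in cluster 10. *GRHL1*, a transcription factor of epidermal differentiation, stood at 135 CPM in anagen, 211 in catagen and 128 in telogen in cluster 10 and 91.3 CPM in anagen, 156 in catagen and 90.2 in telogen in cluster 16. It was higher than this in cluster 17, at 159 CPM in anagen, 306 in catagen and 140 in telogen. High levels of the members thus occurred both in cluster 10, where most of these genes were at least 2-fold higher, and in cluster 16, where most were not.

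The genes whose pattern was most like each member were ranked by Pearson correlation of log2(CPM + 10) over 62 points, each a cluster in a library with at least 50 cells, among the 4041 named genes that reached 50 CPM in 1 or more points. The points share libraries and cells of like depth, and the correlations are a description. The members correlated with each other at 0.79 to 0.85. The highest for *KLK6* were *SLC36A2* (0.92), *PRSS27* (0.88), *SPINK9* (0.86), *AQP9* (0.86) and *SLC15A1* (0.81). For *KLK12* they were *PRSS27* (0.93), *SPINK9* (0.92), *SLC36A2* (0.89), the carboxypeptidase M gene *CPM* (0.88) and *AQP9* (0.87). *KLK10* had *SLC36A2* (0.82), *AQP9* (0.81), the *CPM* gene (0.80), *PRSS27* (0.78) and *NEFM* (0.76), whereas *KLK7* had *KLK5* (0.84), *SULT2B1* (0.83), *SPINK9* (0.81), *ACAP1* (0.80) and *GDPD3* (0.80). *SPINK9*, a kallikrein inhibitor of skin, was on 3 of the 4 lists. Its level was 468 CPM in anagen, 140.0 in catagen and 1158 in telogen in cluster 16, against 83.8 CPM in anagen, 12.4 in catagen and 289 in telogen in cluster 10. *PRSS27*, another serine protease, stood at 166 CPM in anagen, 40.8 in catagen and 192 in telogen in cluster 16 and 60.1 CPM in anagen, 4.56 in catagen and 80.5 in telogen in cluster 10. Of the 20 entries on these lists, 6 stayed with Spearman correlation and 8 when genes needed at least 200 CPM in 1 point.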

How the data were processed

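Follicle cells of 1 anagen, 1 catagen and 1 telogen library were analysed. The deposited values are counts of UMIs per gene and cell barcode, made by the authors with Cell Ranger (anagen 4.0.0, catagen 3.1.0 and telogen 6.0.2 in the file headers, 2.1.1 in the submitters' processing notes). The genome build is not given in the sources used here. The libraries totalled 82862998, 51647865 and 103511775 UMIs, and the minimum of 200 genes per cell removed 13, 62 and 71 cells. Levels are summed UMIs over all UMIs of the same cells (CPM).

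The libraries were integrated with Seurat 5.3.0 in R 4.3.3 (2000 variable genes per library, 30 components, resolution 0.8, finer clusters at 1.2), leaving 31 listed genes out of the integration features. Clusters were named only where at least 3 markers of a class were at least 1.5 times higher than in other cells (65 of 78 markers had a row). For this fold 10 CPM was added to each side. A marker of the class also had to be among the 10 leading genes of the cluster. Doublets were left in. Ratios, shares and intervals were computed in Python 3.11.15 with numpy 2.4.6, pandas 2.3.3 and scipy 1.17.1, and tested on simulated data.

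Named genes are the 4 members, every other kallikrein with a row, listed genes with at least 50 CPM in a library, the 5 genes most alike to each member, and leading genes of clusters. Members and lists were chosen with earlier results of these data known. With 1 library per stage no p-value is given. For gene lists in a cluster, the filter of 10 CPM was set on the whole library, a choice made after seeing the data. Alternatives covered the filter on cells, scaling, weighting, thinning, clustering, doublets, bins and the measure of likeness.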

Additional observations from a re-analysis of the deposited data

Results flagged for a closer look

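The contrast between stages was of opposite sign in clusters 16 and 10 for *KLK12* and *KLK10*. For *KLK12*, the log2 ratio of catagen to anagen was higher by 3.18 in cluster 16 than in cluster 10. For *KLK10*, the same difference between the clusters was 1.83 for catagen against anagen and 1.23 for telogen against anagen. All of these values are with every cell kept. Without the 5% of cells with the most UMIs, *KLK10* in cluster 16 stood at 2442 CPM in anagen and 2511 in catagen, close to each other. Each stage is 1 library, so these differences were not tested. The share of cluster 16 cells in fine cluster 24, the group that held most of its kallikrein UMIs, moved with them, being 61 of 158 in anagen, 97 of 207 in catagen and 106 of 138 in telogen. Its part in the result was not tested beyond the ratios within fine cluster 24 given above.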

How the results depend on the processing

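Each log2 ratio was recomputed under 7 alternatives, 2 of which, the weighting and leaving out cluster 3, were chosen after seeing the data. Against anagen, in the order *KLK6*, *KLK7*, *KLK10*, *KLK12*, the catagen ratios moved beyond their intervals as follows. With at least 1000 genes per cell they were -2.62, -0.64, 0.21 and 0.35, the *KLK10* ratio turning in direction, as it did to 0.018 without cells under 2404 UMIs, where *KLK7* was -0.85 and *KLK12* 0.14. With the mean of each cell's CPM they were -4.07, -1.61, -0.54 and -0.53. For *KLK7*, *KLK10* and *KLK12*, median-of-ratios scaling gave -1.24, -0.34 and -0.24, and anagen weights of the clusters -1.34, -0.62 and -0.70. For telogen, median-of-ratios scaling gave 1.12, 1.35, 0.60 and 1.02, and anagen weights 0.40, 0.70, 0.064 and 0.52. The mean of each cell's CPM gave 0.59, 0.93 and 0.20 for *KLK6*, *KLK7* and *KLK10*. *KLK7* was 1.15 with at least 1000 genes and 1.13 without cells under 2404 UMIs. The causes were not tested. Differences of at least 2-fold numbered 8 with median-of-ratios scaling in place of 4, with no share of all genes computed under that scaling. Bins by *KRTDAP* and *SBSN* gave 12 higher upper bins in place of 4, with no share of all genes computed for either. Of the 20 genes most alike, 6 stayed with Spearman correlation and 8 at 200 CPM. The members were highest in clusters made mostly of cells of clusters 10 and 16 in 12 of 12 pairs of member and library under 4 of the 5 clustering and doublet alternatives and in 11 at resolution 0.4, *KLK12* in anagen being the exception. Shares of cells were higher at 3000 UMIs and without thinning in all 12 pairs. The catagen values of *KLK6* rest on 82 UMIs. No paired analysis was possible because there is 1 library per stage, and no library could be left out.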
